A study of Mus musculus with 14 samples.

Results

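The genes described here are the hair keratins, the inner root sheath and companion layer keratins and the keratin-associated proteins (KAPs) of mouse skin. They were taken by name: every row of the count table whose symbol begins with Krtap, and 25 keratin symbols (Krt25 to Krt28, Krt31, Krt32, Krt33a, Krt33b, Krt34 to Krt36, Krt39, Krt40, Krt71 to Krt75 and Krt81 to Krt87). Of 137 rows with such a name, 108 reached the minimum of 10 counts summed over all libraries and are the members. They are 25 keratins and 83 KAPs, out of 35327 genes. The other 29 rows, 7 of them without any count, stayed below it. Just inside the minimum lay Krt40 with 11 counts and Krtap10-22 and Krtap31-3 with 13 each, and just outside it Krtap10-27 and Krtap10-23 with 9 counts. The minimum used measured counts, and the set was proposed with results of these libraries known, so its pattern across libraries is given as a description, without a test.

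The study measured polyadenylated RNA of cryosectioned neck skin from mice labelled female, in 14 libraries of 5 groups, by RNA sequencing. Untreated skin came from wild-type C57BL/6J mice of 6 weeks (2 libraries). The isotype group and the MAR1 group (3 libraries each) were C57BL/6J mice of 6 weeks whose shaved neck received MC903 for 6 days, 1 nmol in 100 µL a day. MC903 is calcipotriol, a vitamin D analogue that causes a dermatitis resembling atopic eczema. These mice also received 20 µg of either an isotype control antibody or MAR1, an antibody against the IgE receptor FcεRI used to deplete basophils, with 3 injections before the first MC903. The fl/fl group carried floxed Il4ra alleles, encoding a receptor chain for IL-4 and IL-13. The cKO group carried the same alleles with Pdgfra-CRE, whose promoter is active in fibroblasts, among other mesenchymal cells. Both had 3 libraries from C57BL/6J mice of 6 to 7 weeks that received MC903 for 6 days and no antibody. The names of both untreated libraries differ only by a suffix, so it is not known that they came from different mice. It is also not stated whether vehicle was applied to them. Nor do the labels say that the libraries of a group came from separate animals, so the p-values reflect variation among these samples, which may be technical.

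Library totals ran from 5728921 to 55291463 estimated counts, with the MAR1 libraries the shallowest (5728921 to 10582016). Olfactory and vomeronasal receptor genes, whose known site of expression is the nose, took 3.88 to 9.38% of the counts in MAR1, 0.467 to 2.58% in cKO, 0.269 to 0.439% with isotype and at most 0.277% elsewhere. As a check of the tissue label, 11 interfollicular epidermis genes such as Krt5 and Krt10 summed to at least 3556 CPM (counts relative to the TMM-adjusted library size) in every library. Skeletal muscle genes summed to 18240 to 82430 CPM in fl/fl and to 2895 and 20330 CPM in untreated 1 and 2, and salivary gland genes to 1057 and 14790 CPM in fl/fl 1 and fl/fl 2, against at most 84.2 CPM in any other library. In bulk skin, fewer cells of a type and less RNA per cell cannot be told apart. Il4ra stood at 145 to 215 CPM in fl/fl and at 14.5 to 70.7 CPM in cKO, and at 179 to 196 CPM with isotype and 9.02 to 45.8 CPM under MAR1.

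A hair follicle makes its shaft only while it grows. Cells leaving the matrix at its base build hair keratins, which pair a type I with a type II chain, and embed these filaments in KAPs, small proteins that crosslink them. The inner root sheath, which moulds the shaft, and the companion layer around it use keratins of their own. KAPs fall into high glycine-tyrosine, high sulphur and ultra-high sulphur proteins by composition. The sulphur classes are rich in cysteine, whose disulphide bonds harden the hair. Resting follicles hold a finished club hair and make little of these products.

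Upstream sequences are shown first, since most members moved together and many share a promoter element. RefSeq promoters (build GRCm38.p6, which is not the GRCm39 named in the submitters' processing notes) were found for 58 of 108 members, 17 keratins and 41 KAPs. In the 250 bases before the start, TATAAA occurred on either strand in 48 of the 58 (82.8%), against 4063 of all 32851 promoters in the table (12.4%). On the gene's strand and within the last 50 bases it occurred in 39 of the 58 (67.2%), against 2.63% of all promoters. Keratins and KAPs were alike in this, with 64.7% of 17 and 68.3% of 41 holding it. CTTTGAA, the letters of a LEF1 and TCF site, occurred on either strand in 11 of the 58 (19%), against 4.46% of all. Neither motif contains the other, and a match is a description of the letters only. The printed stretches of 250 bases up to the start, on the gene's strand with TATAAA in capitals, stand for an inner root sheath keratin (Krt71, chr15:101743098-101743347, minus strand), a high glycine-tyrosine KAP (Krtap6-2, chr16:89420112-89420361, minus strand), a high sulphur KAP (Krtap9-3, chr11:99598107-99598356, minus strand) and a companion layer keratin (Krt75, chr15:101573905-101574154, minus strand), one of several keratins whose highest library was neither isotype 1 nor cKO 3.

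Krt71: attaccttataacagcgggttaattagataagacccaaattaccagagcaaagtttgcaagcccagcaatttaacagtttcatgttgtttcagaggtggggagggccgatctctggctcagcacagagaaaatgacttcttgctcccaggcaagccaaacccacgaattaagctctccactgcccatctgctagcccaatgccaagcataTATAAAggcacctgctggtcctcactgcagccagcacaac

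Krtap6-2: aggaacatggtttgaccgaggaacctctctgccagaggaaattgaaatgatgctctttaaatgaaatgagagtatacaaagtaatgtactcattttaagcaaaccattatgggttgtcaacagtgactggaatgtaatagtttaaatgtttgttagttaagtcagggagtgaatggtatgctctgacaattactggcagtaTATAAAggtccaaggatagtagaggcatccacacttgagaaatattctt

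Krtap9-3: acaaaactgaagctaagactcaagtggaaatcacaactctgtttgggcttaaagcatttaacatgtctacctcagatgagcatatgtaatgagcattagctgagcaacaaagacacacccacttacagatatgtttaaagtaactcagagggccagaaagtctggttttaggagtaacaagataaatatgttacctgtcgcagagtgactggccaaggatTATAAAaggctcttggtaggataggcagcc

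Krt75: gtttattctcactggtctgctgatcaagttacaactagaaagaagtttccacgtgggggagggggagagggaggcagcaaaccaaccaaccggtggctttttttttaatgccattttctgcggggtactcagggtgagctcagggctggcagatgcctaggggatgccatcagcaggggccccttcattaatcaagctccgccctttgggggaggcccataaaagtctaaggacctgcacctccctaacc

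The element begins 40, 49 and 30 bases before the start in Krt71, Krtap6-2 and Krtap9-3. The stretch of Krt75 does not hold these letters, which says nothing of its levels.

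The members were high in 2 of the 14 libraries, isotype 1 and cKO 3, which belong to different groups. Together the members took 0.0753% of all counts in isotype 1 (95% Wilson interval 0.0744 to 0.0762%) and 0.169% in cKO 3 (0.167 to 0.171%). The other isotype libraries stood at 0.00669 and 0.0120% and the other cKO libraries at 0.00291 and 0.00546%. Values were 0.0143 and 0.00739% in untreated skin, 0.00398, 0.00677 and 0.00600% under MAR1, and 0.00247, 0.00650 and 0.0196% in fl/fl. These intervals treat each read as an independent draw and leave out variation among samples. Reads without molecular identifiers are not independent molecules, so the intervals can be too narrow even for counting error. The group means therefore carry a spread as large as the mean or larger where they are high: 0.0313% ± 0.0382 (SD, n = 3) with isotype and 0.0590% ± 0.0949 (SD, n = 3) in cKO. They were 0.0108% ± 0.00487 (SD, n = 2) in untreated skin, 0.00559% ± 0.00144 (SD, n = 3) under MAR1 and 0.00953% ± 0.00897 (SD, n = 3) in fl/fl. No group as a whole was high.

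**Figure D1:**
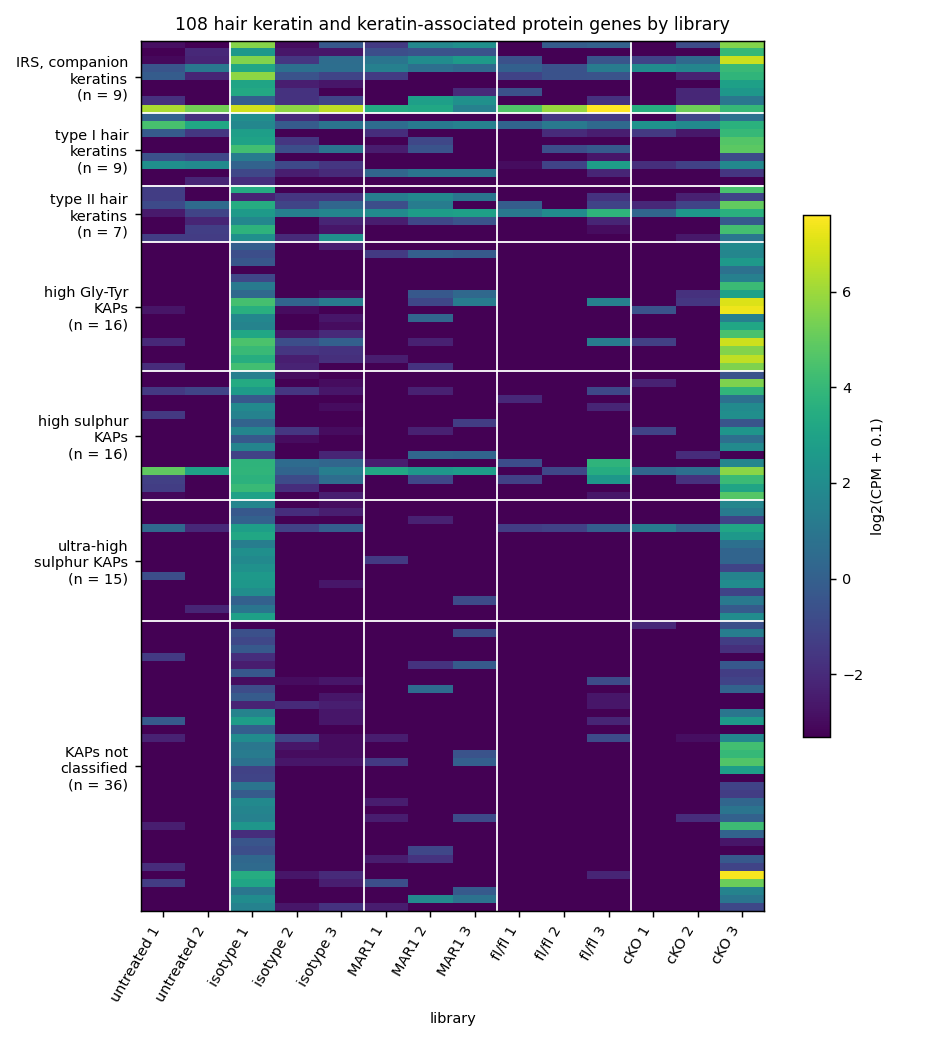
Level of each of the 108 members (rows, grouped by class) in each of the 14 libraries (columns), as log2(CPM + 0.1); white lines part the classes and the groups. Isotype 1 and cKO 3 stand out in nearly every row, while Krt75, the lowest row of the first class, and Krtap3-2, the bright row among the high sulphur KAPs, are present in most libraries.

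The number of members with any count followed the same division. It was 106 of 108 in isotype 1 and 100 in cKO 3, against 44 and 53 in the other isotype libraries and 15 and 23 in the other cKO libraries. In fl/fl it was 13, 12 and 33, under MAR1 26, 31 and 26, and in untreated skin 33 and 20. The highest level of a member lay in isotype 1 for 44 members and in cKO 3 for 50. For the median member, 95.5% of its counts over all 14 libraries came from these libraries, and for 70 of 108 the share was at least 90%. In 22 members, all KAPs of the families Krtap2, 4, 5, 9, 10, 12, 19, 20, 26 and 31, every count came from them. Of all 20939 genes tested, isotype 1 and cKO 3 both stood above the other 12 libraries in 116 (0.554%), and 78 of these were among the 97 members tested (80.4%). With a margin of 2 times over every other library the count was 85 genes (0.406%), of which 74 were members. These shares are partly fixed by the filter on low counts, since only 31 members pass it without these libraries. Among the 20550 genes that pass it without them, both stood above the other 12 libraries in 39 (0.19%), and 16 of these were among the 31 members (51.6%).

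Isotype 1 had 34888962 counts in all, with a receptor gene share of 0.439% and a mitochondrial share of 2.14%. Isotype 2 and 3 were close to it, with 35580114 and 34312206 counts, receptor gene shares of 0.269 and 0.400% and mitochondrial shares of 2.33 and 2.12%. The library cKO 3 stood further from its group, with 16464897 counts, a receptor gene share of 2.58% and a mitochondrial share of 0.477%. In cKO 1 and 2 these were 25754684 and 30811457 counts, 1.49 and 0.467%, and 1.72 and 2.61%. All 3 MAR1 libraries had higher receptor gene shares than cKO 3 and lower mitochondrial shares. They also differ from it in genotype and antibody treatment. The part of depth and RNA quality in the high level of cKO 3 was not tested.

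**Figure D2:**
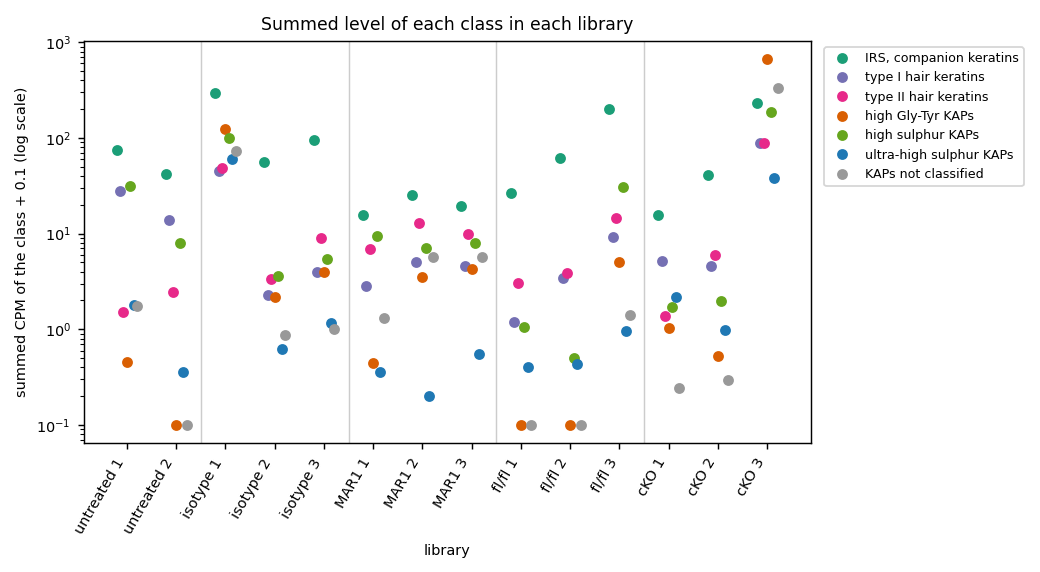
Summed CPM of each class of members, plus 0.1, on a log axis for each of the 14 libraries. All 7 classes are high in isotype 1 and cKO 3, and in cKO 3 the high glycine-tyrosine KAPs reach 667 CPM.

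Of the inner root sheath and companion layer keratins (9 members), the 8 of the sheath itself are the type I chains Krt25 to Krt28 and the type II chains Krt71 to Krt74. Krt25 measured 49.2 CPM in isotype 1 and 48.6 CPM in cKO 3, and between 0 and 4.21 CPM in the other 12 libraries. Krt27 measured 47.1 and 107 CPM in these libraries and at most 6.16 CPM elsewhere. Krt71, mutated in curly-coated mice, measured 54.5 CPM in isotype 1, 14.1 CPM in cKO 3 and at most 0.797 CPM elsewhere. Krt72 stood at 8.33 and 7.36 CPM and was at 0 in 10 of the other 12 libraries. Krt73 stood at 9.56 and 5.48 CPM, and Krt26 at 5.54 and 16.1 CPM, with at most 0.604 CPM elsewhere in both genes. Type I and type II sheath keratins thus appeared together in the same libraries.

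Krt28 was less restricted. It measured 8.90, 1.53 and 1.46 CPM with isotype, 2.58, 1.51 and 1.2 CPM under MAR1, 0.928, 0.580 and 2.22 CPM in fl/fl, 3.86, 3.07 and 16.8 CPM in cKO, and 0.620 and 1.97 CPM in untreated skin. All 3 cKO libraries lay above all 3 fl/fl libraries. Krt74 was highest in MAR1 2 and MAR1 3, at 7.15 and 4.36 CPM, but had no count in MAR1 1. It measured 0.856 CPM in isotype 1, 1.94 CPM in cKO 3 and at most 0.380 CPM elsewhere.

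Krt75, the keratin of the companion layer, had the most counts of all members and, like Krt32, Krt36, Krt39, Krt74, Krt82, Krt84 and Krt87, had its highest level outside isotype 1 and cKO 3. It measured 73.8 and 39.2 CPM in untreated skin, 114, 53.3 and 91.5 CPM with isotype, 10.1, 8.96 and 2.70 CPM under MAR1, 24.1, 59.9 and 196 CPM in fl/fl, and 11.3, 36.1 and 15.8 CPM in cKO. The MAR1 libraries lay below all others, fl/fl 3 was the highest, and cKO 3 lay between the other cKO libraries. Isotype 1 and cKO 3 held 15.8% of its counts. They held 61.3% of the counts of all members and 81.3% once Krt75 was left out. In isotype 2 and 3 Krt75 gave 1849 of 2379 and 3133 of 4105 member counts. In fl/fl 1, 2 and 3 it gave 884 of 1164, 2683 of 3120 and 6624 of 8851.

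Among type I hair keratins (9 members), the cortex keratins were nearly absent outside isotype 1 and cKO 3. Krt33b measured 7.82 CPM in isotype 1, 25.8 CPM in cKO 3 and at most 0.403 CPM elsewhere. Krt34 measured 19.4 and 29.3 CPM, with at most 1.72 CPM elsewhere. Krt33a measured 6.99 and 16 CPM and Krt31 4.11 and 1.59 CPM, each with at most 0.957 CPM in the other 12 libraries. Krt35, which appears early in the matrix and precortex, reached 2.28 CPM in isotype 1 but 0.471 CPM in cKO 3, between the untreated libraries at 0.549 and 0.403 CPM. Krt40 had 11 counts in all, 6 of them in isotype 1, and Krt39 was highest under MAR1, at 1.12, 1.81 and 1.80 CPM, and at most 0.400 CPM elsewhere.

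Krt32, of the shaft cuticle, had another pattern. It measured 21.3 and 9.04 CPM in untreated skin, 3.25, 0.778 and 1.72 CPM with isotype, 1.37, 2.11 and 2.70 CPM under MAR1, 1.06, 2.03 and 1.24 CPM in fl/fl, and 4.61, 3.66 and 12.7 CPM in cKO. The highest library was untreated 1, and no isotype, MAR1 or fl/fl library reached either untreated library. Krt36 measured 4.22 and 3.68 CPM in untreated skin, 0.999, 0.432 and 0.234 CPM with isotype, 0.0273, 0.357 and 6.65 CPM in fl/fl and 0.177, 0.327 and 3.36 CPM in cKO. It had no count under MAR1, where a count of 0 allows up to 0.283 to 0.524 CPM. It was high in untreated skin, in fl/fl 3 and in cKO 3.

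Among type II hair keratins (7 members), Krt81, Krt83 and Krt86 of the cortex behaved like the type I cortex keratins. Krt81 measured 10.4 CPM in isotype 1 and 21.8 CPM in cKO 3, and was at 0 in every other library except untreated 1 (0.301 CPM). Krt86 measured 13.4 and 20.4 CPM, with at most 0.308 CPM elsewhere, and Krt83 10.9 and 31.6 CPM, with at most 2.31 CPM elsewhere. Krt85, expressed early in the matrix like Krt35, measured 3.22 CPM in isotype 1 and 0.765 CPM in cKO 3. Krt82, a cuticle keratin, was highest under MAR1, at 2.49, 3.32 and 1.80 CPM, and at most 0.353 CPM elsewhere.

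Krt84 and Krt87 varied differently. Krt84, best known from the tongue, measured 0.0709 and 0.380 CPM in untreated skin, 6.08, 2.51 and 3.04 CPM with isotype, 3.69, 6.74 and 7.36 CPM under MAR1, 2.07, 3.75 and 13.7 CPM in fl/fl, and 1.13, 5.39 and 12.4 CPM in cKO. Every MC903-treated library lay above both untreated libraries. Krt87 measured 0.301 and 0.285 CPM in untreated skin and 4.25, 0.144 and 4.38 CPM with isotype. In cKO it measured 0, 0.0654 and 1.94 CPM, and it had no count under MAR1 or in fl/fl. Isotype 3, otherwise low in hair keratins, thus matched isotype 1 for this gene.

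**Figure D3:**
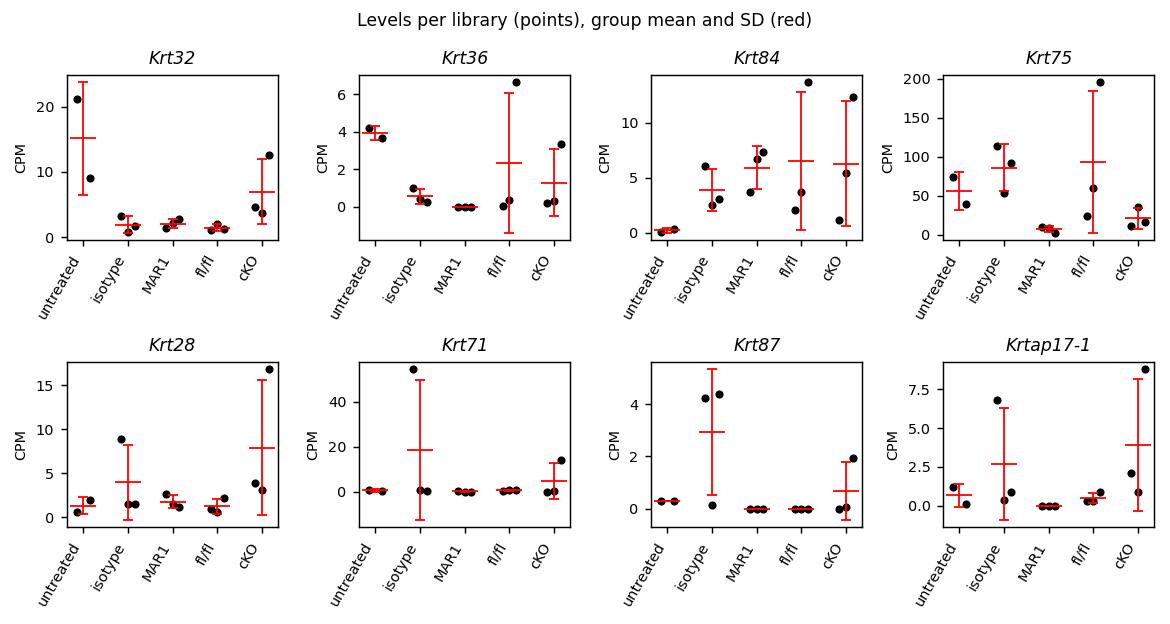
CPM of 8 members in each library (black points), with the group mean and SD in red. Krt32 and Krt36 are high in untreated skin, Krt84 is near 0 only there, Krt75 is lowest under MAR1, and the isotype mean of Krt71 rests on 1 library at 54.5 CPM.

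KAPs were grouped by the composition of their coding sequence in GENCODE M21, with at least 35% of codons for glycine or tyrosine making a high glycine-tyrosine protein and at least 30% for cysteine an ultra-high sulphur protein, the rest being high sulphur. The glycine-tyrosine limit was applied first, so Krtap28-10 and Krtap28-13 count as high glycine-tyrosine, although 42.9 and 42.8% of their codons are for cysteine. Krtap7-1, with 29.9% of codons for glycine or tyrosine and 9.2% for cysteine, counts as high sulphur. A coding sequence was found for 47 of 83 KAPs, and the other 36 were left unclassified. Near-identical copies in families such as Krtap4, Krtap6, Krtap9 and Krtap20 share reads, so the split of counts among copies is uncertain while the sum over a class is less so. Isotype 1 and cKO 3 held 87.1% of all KAP counts, and 93.7% without Krtap3-2. No KAP count was seen in either untreated library for 65 of 83 KAPs, nor in any fl/fl library for 67.

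High glycine-tyrosine KAPs (16 members), proteins of the cortex in which these residues can make up most of the chain, had 96.9% of their counts in isotype 1 and cKO 3. Krtap22-2 (67 codons, 62.7% for glycine or tyrosine) measured 11.7 CPM in isotype 1, 159 CPM in cKO 3 and at most 0.603 CPM elsewhere. Krtap21-1 (128 codons, 64.1%) measured 21 and 133 CPM, and at most 2.60 CPM elsewhere. Krtap6-2 (155 codons, 65.2%), whose upstream stretch is printed above, measured 23.0 and 111 CPM, and at most 2.33 CPM elsewhere.

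High sulphur KAPs (16 members) had 63.6% of their counts in these libraries, where Krtap3-2 alone had 33.1%. Krtap3-2 (99 codons, 20.2% for cysteine) measured 30.4 and 7.54 CPM in untreated skin, 14.2, 1.04 and 2.42 CPM with isotype, 9.19, 5.33 and 6.46 CPM under MAR1, 0, 0.402 and 10.8 CPM in fl/fl, and 1.13, 1.5 and 52.8 CPM in cKO. It was the one KAP at several CPM in untreated skin and in all MAR1 libraries. Krtap3-3, of the same length and cysteine share, measured 13.0 CPM in isotype 1, 17.2 CPM in cKO 3, 5.38 CPM in fl/fl 3 and at most 1.40 CPM elsewhere. Krtap1-5 (26.2% cysteine codons) measured 10.2 and 45.1 CPM, with 4 counts in the other 12 libraries together.

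Ultra-high sulphur KAPs (15 members) had 89.96% of their counts in isotype 1 and cKO 3. Krtap4-1 (169 codons, 38.5% for cysteine) measured 9.16 and 5.53 CPM and Krtap9-1 (186 codons, 37.6%) 7.42 and 3.89 CPM, and both were at 0 in the other 12 libraries. Krtap17-1 was broader. It measured 1.2 and 0.142 CPM in untreated skin, 6.82, 0.346 and 0.876 CPM with isotype, 0.300, 0.335 and 0.857 CPM in fl/fl, and 2.09, 0.883 and 8.77 CPM in cKO, and it had no count under MAR1. With 34.9% of codons for glycine or tyrosine and 35.8% for cysteine, it lay just under the limit of the other class.

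Of the 36 unclassified KAPs, Krtap6-6 measured 10.9 CPM in isotype 1 and 179 CPM in cKO 3, with at most 0.146 CPM elsewhere. Krtap6-7 measured 8.56 and 35.4 CPM and Krtap20-21 1.57 and 25.3 CPM, with at most 0.902 CPM in any other library. The class had 96.3% of its counts in isotype 1 and cKO 3.

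The libraries high in the members differed in the balance of classes. Summed inner root sheath and companion layer keratins were at 298 CPM in isotype 1 and 233 CPM in cKO 3, 0.783 times as much. Krt75 alone gave 114 and 15.8 CPM of these sums, and without it the sum was higher in cKO 3. Type I hair keratins were at 45.4 and 89.4 CPM (1.97 times), with 5 of 9 higher in cKO 3. Type II hair keratins were at 48.4 and 89.3 CPM (1.85 times), with 5 of 7 higher in cKO 3. Lower there were Krt31, Krt35, Krt39 and Krt40 of type I and Krt85 and Krt87 of type II. High glycine-tyrosine KAPs were at 124 and 667 CPM (5.37 times), and 15 of 16 were higher in cKO 3. Krtap28-10, which also passes the cysteine limit, was the exception at 3.25 and 2.53 CPM. Krtap28-13, which passes it too, measured 2.85 and 8.77 CPM. High sulphur KAPs were at 99.5 and 188 CPM (1.89 times), with 11 of 16 higher in cKO 3. Krtap7-1 of this class, the nearest to the glycine-tyrosine limit, measured 17.0 and 8.36 CPM. Ultra-high sulphur KAPs went the other way, at 60.7 and 37.7 CPM (1.61 times as much in isotype 1), with 11 of 15 higher in isotype 1. Unclassified KAPs were at 73.7 and 329 CPM, although 22 of 36 were higher in isotype 1. These are single libraries of different genotype and treatment, so the differences have no replicate check.

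**Figure D4:**
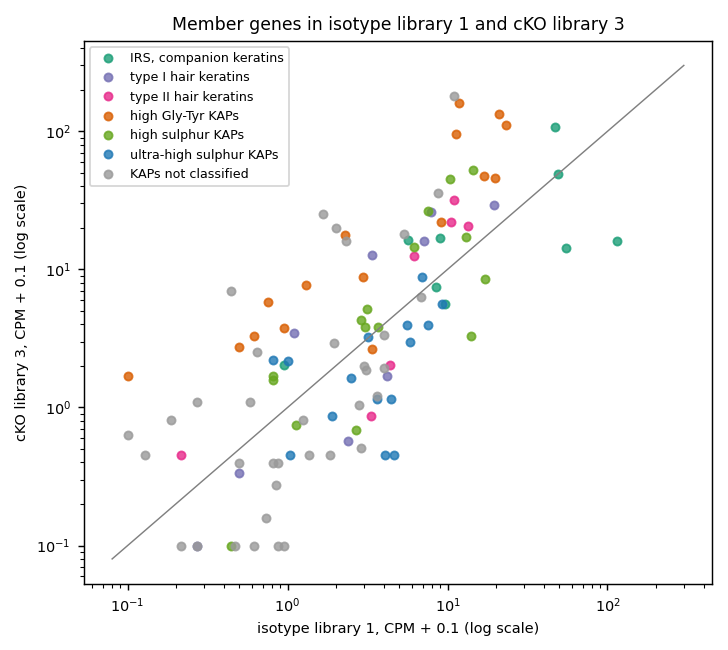
CPM of each member in isotype 1 (x axis) and cKO 3 (y axis), plus 0.1, on log axes, with the line of equal levels. High glycine-tyrosine KAPs lie above the line in 15 of 16 cases and ultra-high sulphur KAPs below it in 11 of 15.

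Between groups, few members passed the test. Counts were fitted for 20939 genes in edgeR (quasi-likelihood test, two-sided, Benjamini-Hochberg adjusted p under 0.05 over all genes). Of the members, 97 passed the filter on low counts, 24 keratins and 73 KAPs. The 11 left out were Krt40 and 10 KAPs. Without isotype 1 and cKO 3 only 31 members passed, so medians over the 97 mostly describe those libraries.

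Isotype (MC903) against untreated skin compares MC903 treatment in the antibody arm with normal skin. The untreated mice are not labelled as injected, shaved or given vehicle, so MC903 cannot be told apart from injection and handling. Krt32 fell by 2.98 ± 0.75 (SE) on the log2 scale, 7.89-fold, from 15.2 ± 8.65 CPM (SD, n = 2) to 1.92 ± 1.25 CPM (SD, n = 3), with an edgeR adjusted p of 0.047. It was the only member called, 1 of 97 (1.03%), where 3.08% of all genes tested were called and 1.72% were called lower. Krt84, with no overlap between the groups, was 4.10 ± 1.2 (log2, SE) higher at an adjusted p of 0.085, and Krt36 2.82 ± 1.71 lower at an adjusted p of 0.40. The fitted median of the members was 6.26 (log2) against 0.11 for all genes. With the 61 members that had no count in untreated skin set to the bound of 3 counts per library, the median was 3.57. Still, 21 members (21.6%) had all 3 isotype libraries above both untreated ones, against 26.2% of all genes. The Krt32 call kept its direction under all 25 other settings and lost the threshold in 18 of them, with adjusted p from 0.00303 to 0.345. Among removals of 1 library, it stayed past the threshold only without cKO 3 or fl/fl 3, and the adjusted p was otherwise 0.050 to 0.35. Without any 1 isotype library, 0.519 to 0.632% of all genes were called.

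Fl/fl (MC903) against untreated skin compares MC903 treatment without antibody with the same untreated libraries. The groups also differ in the floxed Il4ra alleles and the age range, and fl/fl 1 and 2 hold salivary gland transcripts, so these cannot be told apart from MC903. Krt32 fell again, by 3.39 ± 0.76 (log2, SE) or 10.4-fold, to 1.45 ± 0.51 CPM (SD, n = 3), with an adjusted p of 0.039. It was again the only call, 1 of 97, against 1.72% of all genes called and 0.95% called lower. Both comparisons use the same 2 untreated libraries, so they are not independent. Krt84 was 4.85 ± 1.25 (log2, SE) higher, at 6.51 ± 6.29 CPM against 0.225 ± 0.218 CPM, with an adjusted p of 0.067. The fitted median of the members was 0, as for all genes, and 52 members had no count in either group. The Krt32 call was lost in 11 of 25 other settings, with adjusted p up to 0.287. These include the removal of either untreated library, of any 1 fl/fl library, of MAR1 2, of cKO 1 and of isotype 3 (0.051 to 0.15).

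MAR1 against isotype asks what the antibody changes in MC903-treated skin. The 4 members called were all lower under MAR1, 4.12% of 97, where 49% of all genes were called and 26.5% were called lower. Krt75 fell by 3.55 ± 0.76 (log2, SE), 11.7-fold, from 86.2 ± 30.6 to 7.27 ± 4.0 CPM (SD, n = 3 each), with an adjusted p of 0.0026. Krtap17-1 had no count under MAR1 against 2.68 ± 3.60 CPM (SD, n = 3), at least 6.98-fold lower with the floor of 3 counts per library, at an adjusted p of 0.0087. That bound rests on isotype 1, without which the isotype mean is 0.611 CPM and the bound 1.59-fold. Krt87 had no count either, against 2.93 ± 2.41 CPM (SD, n = 3), at least 7.6-fold lower, at an adjusted p of 0.032. Krt71 had 3 counts in all under MAR1, against 18.5 ± 31.2 CPM (SD, n = 3), with an adjusted p of 0.036. Without isotype 1 it was no longer called (adjusted p = 0.40), and neither was Krt87 (0.066). Krt87 also lost its call without isotype 3 or any 1 MAR1 library (adjusted p of 0.069 to 0.078), and Krt71 without any 1 MAR1 library or fl/fl 3 (0.055 to 0.11).

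Krt75 and Krtap17-1 were called lower when any 1 library was left out. Without isotype 1 the adjusted p was 0.034 for Krtap17-1, whose other isotype libraries, at 0.346 and 0.876 CPM, lie near the MAR1 detection limit of 0.283 to 0.524 CPM. With the receptor gene share as a covariate, which is 3.88 to 9.38% under MAR1, 0 of all 20939 genes were called, the 4 members among them, and Krt75 was 1.48 lower (log2) at an adjusted p of 0.81. Depth, receptor genes and MAR1 treatment moved together, so they cannot be told apart here. Krt39 and Krt82 were above isotype in all 3 MAR1 libraries, by 2.88 ± 1.84 and 3.69 ± 1.83 (log2, SE), at adjusted p of 0.20 and 0.10. They were the only 2 members (2.06%) without overlap in that direction, against 32.1% of all genes. The fitted median of the members was -5.87 against 0 for all genes, and -1.78 with the 49 members at 0 under MAR1 set to their bound.

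cKO against fl/fl asks what deletion of Il4ra in Pdgfra-expressing cells changes under MC903. Krt32 rose by 2.26 ± 0.69 (log2, SE), 4.8-fold, to 6.98 ± 4.94 CPM (SD, n = 3) from 1.45 ± 0.51, with an adjusted p of 0.036, and all 3 cKO libraries lay above all 3 fl/fl libraries. It was 1 of 97 members called, against 18.7% of all genes called and 12.7% called higher. Without cKO 3 its difference was 1.51 at an adjusted p of 0.18, and it was also not called without fl/fl 1, fl/fl 2 or isotype 3 (0.053 to 0.057). Krt28 was 2.67 ± 0.96 higher (adjusted p = 0.068) and Krt75 2.14 ± 0.71 lower (adjusted p = 0.052), neither past the threshold. The fitted median was 6.46 against 0.03 for all genes, and 3.55 with 63 members at 0 in fl/fl set to their bound. The number of members called depended on single libraries: 14 without cKO 2 (14.4%, against 20.9% of all genes in that fit), 7 without cKO 1 (7.22%, against 16%) and 0 without cKO 3 (against 9.47%), fl/fl 2 (12.8%) or isotype 3 (14.9%). It was 3 without isotype 1 (5.88%, against 15.7%), and 2 without fl/fl 3 (2.08%, against 20.2%) or MAR1 3 (2.08%, against 17.5%). Skeletal muscle genes, at 38.6 to 4609 CPM in cKO, were below all fl/fl libraries as well, and the part of tissue content in these values was not tested.

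Between the MC903-treated control groups, fl/fl and isotype, which differ in genotype, age range and injections, edgeR called 0 of 97 members (5.22% of all genes). At an unadjusted p under 0.05 there were 25 members (25.8%, against 24.3% of all genes). DESeq2 called 4 of 108 (3.7%, against 17.4% of all genes). All 3 fl/fl libraries were below all 3 isotype libraries for 12 members (12.4%), against 20.5% of all genes.

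The test of the cKO effect minus the MAR1 effect called 2 of 97 members (2.06%, against 7.96% of all genes called and 6.14% called in the same direction), Krt87 with an adjusted p of 0.038 and Krtap17-1 with an adjusted p of 0.031. Both had no count under MAR1, and Krt87 none in fl/fl. Their fitted sizes therefore depend on the prior count and are no measure of the difference. Neither was called without isotype 1 (adjusted p of 0.078 and 0.068), isotype 2, isotype 3, MAR1 3 or fl/fl 2, nor was Krt87 without MAR1 1 or Krtap17-1 without cKO 1. Without any 1 isotype library, only 1 of all genes was called. The count was 10 without cKO 2 (10.3%, against 8.04% of all genes) and 9 without fl/fl 3 (9.38%, against 23.3%).

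Other genes of the follicle were read from lists that hold no member. A list of 16 held proteins of the shaft and inner root sheath other than keratins. With isotype against untreated skin, 3 of these were called higher and 1 lower, where 3.08% of all genes were called. Under MAR1 against isotype it was 0 higher and 9 lower, against 49% of all genes called and 26.5% called lower. In cKO against fl/fl it was 1 higher and 3 lower, against 18.7% of all genes called and 12.7% called higher. Tchh, trichohyalin of the inner root sheath and medulla, measured 11.7 and 6.52 CPM in untreated skin, 2110, 1971 and 1914 CPM with isotype, 214, 261 and 204 CPM under MAR1, 1370, 1069 and 2799 CPM in fl/fl and 476, 1074 and 889 CPM in cKO. Unlike the sheath keratins, it was far above untreated skin in every MC903-treated library. It rose by 7.78 ± 0.66 with isotype and 7.58 ± 0.66 in fl/fl against untreated skin (log2, SE, both at an adjusted p of 0.00017 or less) and fell by 3.14 ± 0.44 under MAR1 (adjusted p = 0.00029). Padi3, which modifies trichohyalin, fell by 3.70 ± 1.40 (log2, SE) under MAR1 (adjusted p = 0.042). It was highest in fl/fl 3 at 39.2 CPM.

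Of these 16 genes, 4 were highest in both isotype 1 and cKO 3, against 0.554% of all genes tested. They were S100a3, Gprc5d, Padi1 and Tchhl1. S100a3, a calcium-binding protein of the shaft cuticle, measured 20.4, 3.72 and 5.38 CPM with isotype, 0.177, 3.04 and 36.9 CPM in cKO and 12.02 CPM in fl/fl 3. Gprc5d measured 3.88 CPM in isotype 1 and 4.83 CPM in cKO 3 and at most 2.55 CPM elsewhere. Dsg4, the desmoglein of the shaft, stayed at or below 0.337 CPM everywhere.

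Of 38 regulators of follicle growth and hair keratin transcription, none was highest in both libraries. Over all genes tested the share was 0.554%, so none in a list of this size says little. Of the 38, 3 were called lower with isotype against untreated skin, where 1.72% of all genes were called lower. Under MAR1 against isotype it was 10 higher and 8 lower, against 49% of all genes called and 26.5% called lower. In cKO against fl/fl it was 3 higher and 1 lower, against 18.7% of all genes called and 12.7% called higher. Hoxc13, which activates hair keratin genes, measured 19.1, 10.6 and 26.4 CPM with isotype and 7.87, 7.55 and 7.30 CPM in cKO, so cKO 3 was the lowest of its group. Its highest level was 67.4 CPM in fl/fl 3. Foxn1, which hair keratin genes also need, measured 4.68, 4.5 and 4.06 CPM with isotype and 5.00, 3.99 and 8.36 CPM in cKO. Msx2 measured 4.28, 1.18 and 3.92 CPM with isotype and 0.425, 3.14 and 4.89 CPM in cKO. Lef1, the Wnt effector of the matrix that T cells also express, measured 5.14, 3.00 and 4.70 CPM with isotype, 49.7, 53.9 and 75.4 CPM under MAR1, 86.7, 18.1 and 0.916 CPM in fl/fl and 14.1, 5.88 and 23.6 CPM in cKO. It was highest in fl/fl 1. Under MAR1 it rose by 3.80 ± 1.08 (log2, SE) against isotype, at an adjusted p of 0.012. Shh, made by the growing matrix, stayed at or below 0.601 CPM in every library.

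The lists of dermal papilla, outer root sheath and bulge, sebaceous gland, interfollicular epidermis, melanocytes, skeletal muscle, salivary gland and fibroblasts also held 0 genes that were highest in both isotype 1 and cKO 3. With a share of 0.554% over all genes tested, this too says little. Dermal papilla genes summed to 144 CPM in isotype 1, against 152 and 133 CPM in isotype 2 and 3, and to 83.6 CPM in cKO 3, against 139 and 127 CPM in cKO 1 and 2. Outer root sheath and bulge genes summed to 2806 CPM in isotype 1, against 2956 and 3863, and to 2490 CPM in cKO 3, against 2232 and 3970. Interfollicular epidermis genes summed to 19340 CPM in isotype 1, against 38230 and 30680, and to 17860 CPM in cKO 3, against 17880 and 33120.

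**Figure D5:**
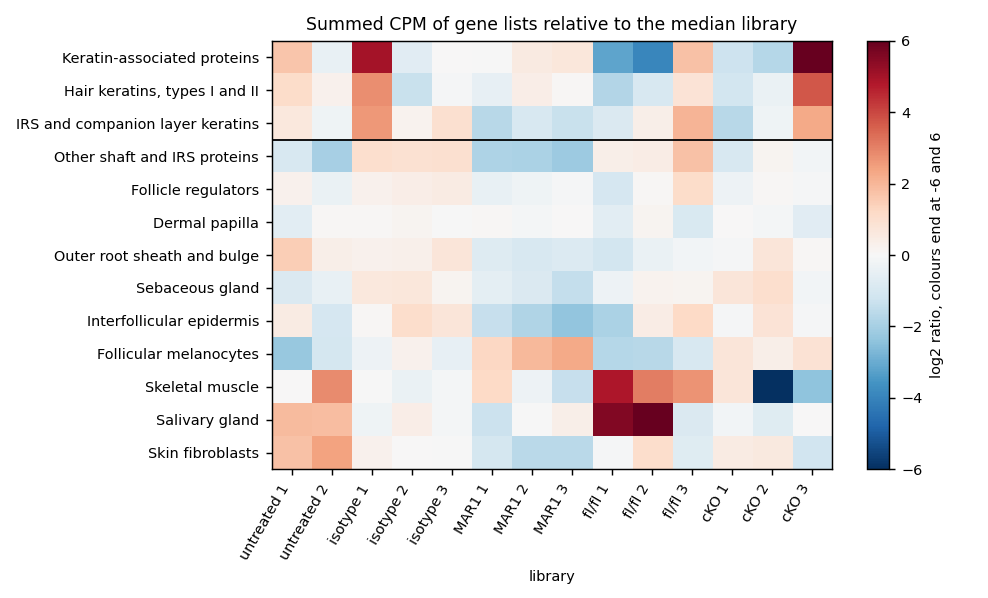
Summed CPM of the members (top 3 rows) and of 10 gene lists in each library, as the log2 ratio to the median library, with colours ending at -6 and 6. The top 3 rows are highest in isotype 1 and cKO 3, except that the third row is also high in fl/fl 3, while the salivary gland list is highest in fl/fl 1 and 2 and the muscle list is high in all fl/fl libraries and untreated 2.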

How the data were processed

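RNA sequencing of 14 mouse skin libraries in 5 groups was analysed from 1 table of deposited expected counts (estimated counts per gene symbol, with decimals), which carry no normalization by the authors. Salmon 1.2.1, DESeq2 1.44.0 and the build GRCm39 are listed in the submitters' processing notes, without their roles. An entry without a gene name took 0.0137 to 0.913% of the counts and was left out. Counts were rounded and fitted with R 4.3.3 and edgeR 4.0.16, using TMM, filterByExpr, 5 group means over all 14 libraries and the robust quasi-likelihood test, with 9 residual degrees of freedom. P-values were adjusted over all 20939 genes tested, and genes were called at an adjusted p under 0.05. Standard errors were taken as |log2 fold change|/√F. CPM are TMM-scaled and not corrected for gene length. The bounds of 3 counts per library and the MAR1 detection limits used library totals without the TMM factor. With that factor, 3 counts are 0.258 CPM in MAR1 1 and 0.451 CPM in MAR1 3. The script was tested on simulated data. No 2 libraries of a group agreed within sampling noise.

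The members and gene lists were chosen with earlier results of these data known. The text names every member keratin, the 3 KAPs of each class with the highest mean CPM (others are chosen after their values were seen), up to 10 called members per direction, and Hoxc13, Foxn1, Lef1, Msx2, Shh, Tchh, Dsg4 and Padi3. KAP classes come from codons, since no protein table was used here. Alternatives were DESeq2 1.42.0, RLE scaling, library sizes without the members, keeping all genes, keeping genes of 1 CPM or more in 3 or more libraries (the stricter filter), fitting only the groups compared, the receptor gene share as a covariate, the replicate number as a block, thinning to the shallowest library, the untreated libraries summed and each library left out. The removal of isotype 1 and cKO 3 together was chosen after seeing the data.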

Additional observations from a re-analysis of the deposited data

Results flagged for a closer look

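Krt87 and Krtap17-1 differed between the cKO effect (cKO against fl/fl) and the MAR1 effect (MAR1 against isotype) by the interaction test of edgeR. For Krt87 the fitted difference was 16.8 ± 4.01 (log2, SE; adjusted p = 0.038) and for Krtap17-1 it was 12.3 ± 2.82 (adjusted p = 0.031). Because Krt87 was at 0 counts under MAR1 and in fl/fl, and Krtap17-1 under MAR1, these sizes follow from the prior count and only their direction can be read. Krt87 rested on 4.25 and 4.38 CPM in isotype 1 and 3 and on 1.94 CPM in cKO 3. Krtap17-1 was highest in isotype 1 at 6.82 CPM and in cKO 3 at 8.77 CPM. Without isotype 1 and cKO 3 the adjusted p was 0.087 for Krt87 and 0.071 for Krtap17-1. Without any 1 isotype library only 1 of all genes was called, so the loss of these calls there is not particular to them. Over all 25 other settings it ranged from 0.00125 to 0.0869 and from 0.000479 to 0.0745.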

How the results depend on the processing

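The counts of called members were small. Brackets give the share of all genes called in the same fit. Counts with the untreated libraries summed, which leaves 1 untreated sample, are not given. For isotype against untreated skin (1), DESeq2 called 6 (11.1%) and only the groups compared 4 of 29 (20.3%). RLE scaling (2.94%), the receptor gene covariate (3.19%), thinning (3.75%) and the removal of isotype 1 with cKO 3 (0.526%) gave 0. For fl/fl against untreated skin (1) the count was 3 with DESeq2, 2 without a filter and with the receptor gene covariate, and 0 with RLE scaling and only the groups compared (0 of all genes). For MAR1 against isotype (4) it was 9 of 21 with only the groups compared, 3 of them higher (67.6% of all genes). Krt71, Krt87 and Krtap17-1, called in the main fit, did not pass the low-count filter in that fit. The count was 7 of 58 with thinning, 2 of them higher (58.2%), and 0 with the receptor gene covariate (0 of all genes). For cKO against fl/fl (1) it was 9 with DESeq2 (29.7%). It was 2 without a filter (13.5%), with the stricter filter (23%) and with thinning (19.4%). Only the groups compared (8.27%), the receptor gene covariate (0.0669%) and the removal of isotype 1 with cKO 3 (7.42%) gave 0. For fl/fl against isotype (0) it was 4 with DESeq2 (17.4%). For the interaction (2) it was 6 with DESeq2 (20.3%). It was 1 with RLE scaling (4.32%) and with only the groups compared (5.08%), and 0 without isotype 1 and cKO 3 (10.2%). Leaving out 1 MC903-treated library at a time changed the counts as follows, in the same order. They ran from 0 to 2, 0 to 1, 2 to 7, 0 to 14, 0 to 2 and 0 to 10. Of all genes, 0.519 to 6.32, 0.976 to 2.06, 35.2 to 51.5, 9.47 to 20.9, 0 to 15.2 and 0.00479 to 23.3% were called. In that order the replicate number as a block gave 0, 0, 6, 0, 0 and 1 called members. The shares of all genes called in those fits were 1.21, 1.07, 45.7, 14.6, 0.836 and 2.56%. Libraries with the same number showed little common variation, with correlations of -0.144, -0.094 and 0.063 between isotype and MAR1 and 0.077, 0.032 and -0.056 between fl/fl and cKO. The numbers are those of the sample titles and differ from those in several library names. Such correlations in groups this small cannot exclude pairing or shared handling. The difference of Krt75 between cKO and fl/fl turned to 0.13 (log2, adjusted p of 1) with the receptor gene covariate. The cause of these changes was not tested. The mean share of counts taken by the members, with 1 library left out, ran from 0.00739 to 0.0143% in untreated skin, 0.00933 to 0.0436% with isotype, 0.00499 to 0.00639% under MAR1, 0.00448 to 0.0131% in fl/fl and 0.00418 to 0.0870% in cKO. The depth of the MAR1 libraries limits detection there to 0.283 to 0.524 CPM per library.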

Other observations

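With a margin of 2 times over every other library in both isotype 1 and cKO 3, 11 genes that are not members showed the pattern of the members. The most abundant was Prr9, a proline-rich protein gene, at 56.1 CPM in isotype 1, 71.4 CPM in cKO 3 and at most 13.2 CPM elsewhere. The row krtap20-23, whose symbol begins in lower case and therefore was not matched, measured 2.17 and 7.54 CPM and at most 0.432 CPM elsewhere. The other 9 were A030003K21Rik, A030005K14Rik, A030014E15Rik, Gm34396, Gm4553, Gm47955, Gm47959, Gm6217 and Gm7544. Gm7544 measured 4.57 and 17.1 CPM and at most 0.704 CPM in any other library. In the RefSeq gene order Gm34396 lies next to Krtap20-2 and Gm4553 next to Krtap5-2. Prr9 has no KAP gene within 3 genes, and the others were not found in that order.

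After isotype 1 and cKO 3, the share of counts taken by the members was highest in fl/fl 3, at 0.0196%. Most of this was Krt75, with 6624 of the 8851 member counts of that library. Without Krt75 the members summed to 65.8 CPM in fl/fl 3 and to 66.1 CPM in untreated 1. Besides Krt75, fl/fl 3 had the highest level of Krt36 (6.65 CPM), Krt84 (13.7 CPM), Tchh (2799 CPM), Padi3 (39.2 CPM) and Hoxc13 (67.4 CPM) of all 14 libraries. Yet Krt25, Krt27 and Krt71 measured 0.945, 0.620 and 0.591 CPM there, and Krt81 had no count, which allows up to 0.0886 CPM.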
